A study of Mus musculus with 6 samples.

Results

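The 9 genes described here encode parts of the myosin-containing thick filament of the cardiac sarcomere and of the M-band, the line at the middle of the sarcomere where neighbouring thick filaments are cross-linked. They were taken by name: the myosin heavy chains Myh6 and Myh7, the atrial myosin light chains Myl7 and Myl4, the cardiac myosin-binding protein Mybpc3, the M-band genes Myom1, Myom2 and Lrrc39, and titin, Ttn. All 9 were found among the 32739 genes of the files after matching Ensembl identifiers to symbols. All 9 also passed the filter on low counts that left 12047 genes for testing.

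The samples were RNA of HL-1, a mouse atrial cardiomyocyte line that keeps part of its contractile apparatus in culture. All samples went through 6 h of hypoxia followed by 1 h of reoxygenation per the series design, while the sample descriptions read ReOx7h, taken here as the total time. For 3 samples the medium held 5 µM BRL37344, a β3-adrenergic receptor agonist (BRL below), and for the other 3 vehicle only. No label says whether BRL was present during hypoxia, reoxygenation or both. Every comparison is agonist against vehicle within hypoxia and reoxygenation; cultures kept in normal oxygen were not analysed here. HL-1 is a single immortalised line, and no label ties the 3 libraries of a group to independent cultures, so p-values measure the spread between these libraries, which may be technical.

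Myosin heavy chains form the motor heads and the rod of the thick filament. In the mouse, Myh6 (α heavy chain) is the fast isoform of the atria and the adult ventricle, and Myh7 (β heavy chain) is the slow isoform that predominates in the fetal ventricle. The light chains wrap the lever arm of each head, myosin-binding protein C sits on the thick filament and tunes cross-bridge formation, myomesins cross-link thick filaments at the M-band, and titin runs from the Z-disc to the M-band as a molecular spring.

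The libraries held between 4440168 and 5060049 expected counts in the vehicle group and between 6812810 and 8332472 in the BRL group, so the BRL libraries were deeper without overlap. BRL replicate 1 stood apart from the other libraries. Mitochondrially encoded genes took 5.03% of its counts, against 16.5% to 21.9% in the other 5 libraries, and its counts differed from those of BRL replicates 2 and 3 by a chi-square per degree of freedom of 89.1 and 76.8, against 4.20 between those 2. Results that depend on it are given with and without it. Of 10 cardiomyocyte markers 9 passed the filter on low counts, and Sln had 5 counts or fewer in each library. The 10 summed to 2897 to 3057 CPM (counts per 1000000 counts of the library) in vehicle and 2321 to 2524 CPM in BRL libraries. Pln alone was called (log2 fold change −1.52, edgeR adjusted p = 0.00183), and the median of the 9 was −0.06. Actc1 went from 842 ± 61.7 to 456 ± 176 CPM (SD, n = 3). Means of Tnni3, Gata4 and Nkx2-5 were higher with BRL, at 248, 138 and 63.7 against 218, 118 and 49.0 CPM. Summed markers of skeletal myoblasts, fibroblasts and leukocytes stayed at or below 6.08 CPM in every library, with Myod1, Col1a2 and Ptprc at 3 counts or fewer. Summed endothelial markers were 11.7 to 17.5 CPM in vehicle and 44.5 to 61.4 CPM in BRL libraries, and that difference was in Kdr, a receptor of vascular endothelial growth factor. Kdr rose from 6.19 ± 2.37 to 44.6 ± 8.25 CPM (SD, n = 3; log2 fold change 2.84, edgeR adjusted p = 0.00189), while the 7 other endothelial markers summed to 5.44 to 9.68 CPM in vehicle and 4.76 to 7.25 CPM in BRL libraries, with Cdh5, Tie1 and Emcn at 3 counts or fewer. Summed smooth muscle markers were 3507 to 3913 CPM in vehicle and 1630 to 3099 CPM in BRL libraries, with Myh11 at 3 counts or fewer. Most of that sum was Acta2, at 2651 ± 177 CPM in vehicle and 1677 ± 574 CPM in BRL libraries (SD, n = 3). Acta2 was not called (edgeR adjusted p = 0.164). The part of these differences in the results below was not tested. In bulk RNA, fewer cells that express a gene and less RNA per cell cannot be told apart.

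The sequences upstream of the 4 genes that passed the test and of Ttn are shown because cardiac transcription factors are known to act near the starts of sarcomere genes. Each is the 250 bases before the RefSeq start, GRCm38.p6, written in the direction of transcription, and capitals mark matches to any of 9 searched motifs.
Myh6 (chr14:54966608-54966857, minus strand): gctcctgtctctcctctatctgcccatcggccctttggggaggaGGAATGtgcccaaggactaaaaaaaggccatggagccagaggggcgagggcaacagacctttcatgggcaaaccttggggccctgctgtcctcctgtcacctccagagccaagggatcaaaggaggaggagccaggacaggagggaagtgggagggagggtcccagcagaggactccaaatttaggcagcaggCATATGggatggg
Mybpc3 (chr2:91117894-91118143, plus strand): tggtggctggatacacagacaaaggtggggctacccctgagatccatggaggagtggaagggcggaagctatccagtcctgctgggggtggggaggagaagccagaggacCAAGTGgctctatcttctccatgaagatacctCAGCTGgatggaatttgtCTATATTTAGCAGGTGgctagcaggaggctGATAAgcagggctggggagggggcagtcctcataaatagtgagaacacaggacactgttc
Lrrc39 (chr3:116562733-116562982, plus strand): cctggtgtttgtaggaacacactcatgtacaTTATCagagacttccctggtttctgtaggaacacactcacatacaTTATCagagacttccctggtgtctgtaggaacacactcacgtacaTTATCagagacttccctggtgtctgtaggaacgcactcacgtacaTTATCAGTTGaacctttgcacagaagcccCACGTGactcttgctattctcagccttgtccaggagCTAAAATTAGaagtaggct
Myom1 (chr17:71019307-71019556, plus strand): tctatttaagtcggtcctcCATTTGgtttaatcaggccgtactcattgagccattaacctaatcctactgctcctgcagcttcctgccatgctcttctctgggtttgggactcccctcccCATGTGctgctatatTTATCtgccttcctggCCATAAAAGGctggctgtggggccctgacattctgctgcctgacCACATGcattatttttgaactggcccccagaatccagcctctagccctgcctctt
Ttn (chr2:76982548-76982797, minus strand): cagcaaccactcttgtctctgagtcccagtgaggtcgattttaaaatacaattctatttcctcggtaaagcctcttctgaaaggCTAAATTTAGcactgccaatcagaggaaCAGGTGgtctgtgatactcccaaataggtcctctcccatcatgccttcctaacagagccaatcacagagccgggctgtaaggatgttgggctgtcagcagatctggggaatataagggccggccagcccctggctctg

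A MEF2 motif, the binding sequence of myocyte enhancer factor 2, was present in the windows of 3 of the 8 members with a RefSeq window: Mybpc3 at −90 to −81, Lrrc39 at −19 to −10 and Ttn at −166 to −157, counted in bases from the start. It was present in 2.92% of 32851 mouse windows of the same length. A CArG box, the binding sequence of serum response factor, was found in 2 members, Myom1 at −99 to −90 and Myl7 at −61 to −52, and in 1.47% of all windows. The Lrrc39 window held 4 copies of TTATC, the reverse complement of the GATA motif GATAA, spaced 45 bases apart within a repeated stretch. GATAA was found in 4 members and in 22.6% of all windows. CATTCC, the MCAT motif bound by TEAD factors, was found in 3 members, including Myh6 and Myh7, and in 12.6% of all windows. The E-box CANNTG was found in 7 members and in 66.2% of all windows, and TGACG, the cAMP response element half-site, in Myh7 alone among the members and in 17.8% of all windows. TATAAA (12.4% of all windows), AGGTGT (11.8%) and AGGTCA (14.0%) had no match in the members' windows. Both strands were searched, one GATAA match of Lrrc39 overlaps an E-box, and these matches describe letters only.

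With BRL, 4 of the 9 genes fell: Lrrc39, Myh6, Mybpc3 and Myom1. None rose. In the edgeR quasi-likelihood test with Benjamini-Hochberg adjustment over all genes, 1.79% of genes tested were called lower and 1.01% higher. In 8 of the 9 genes, all but Myl7, every BRL library lay below every vehicle library in CPM, which was so for 15.5% of all genes. Per transcript length the groups of Myh7 and Ttn overlapped as well. The median log2 fold change was −0.78 over the 9 genes and 0.01 over all genes tested. The 9 genes together took 0.553% to 0.611% of all counts in vehicle libraries and 0.287% to 0.387% in BRL libraries.

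**Figure D1:**
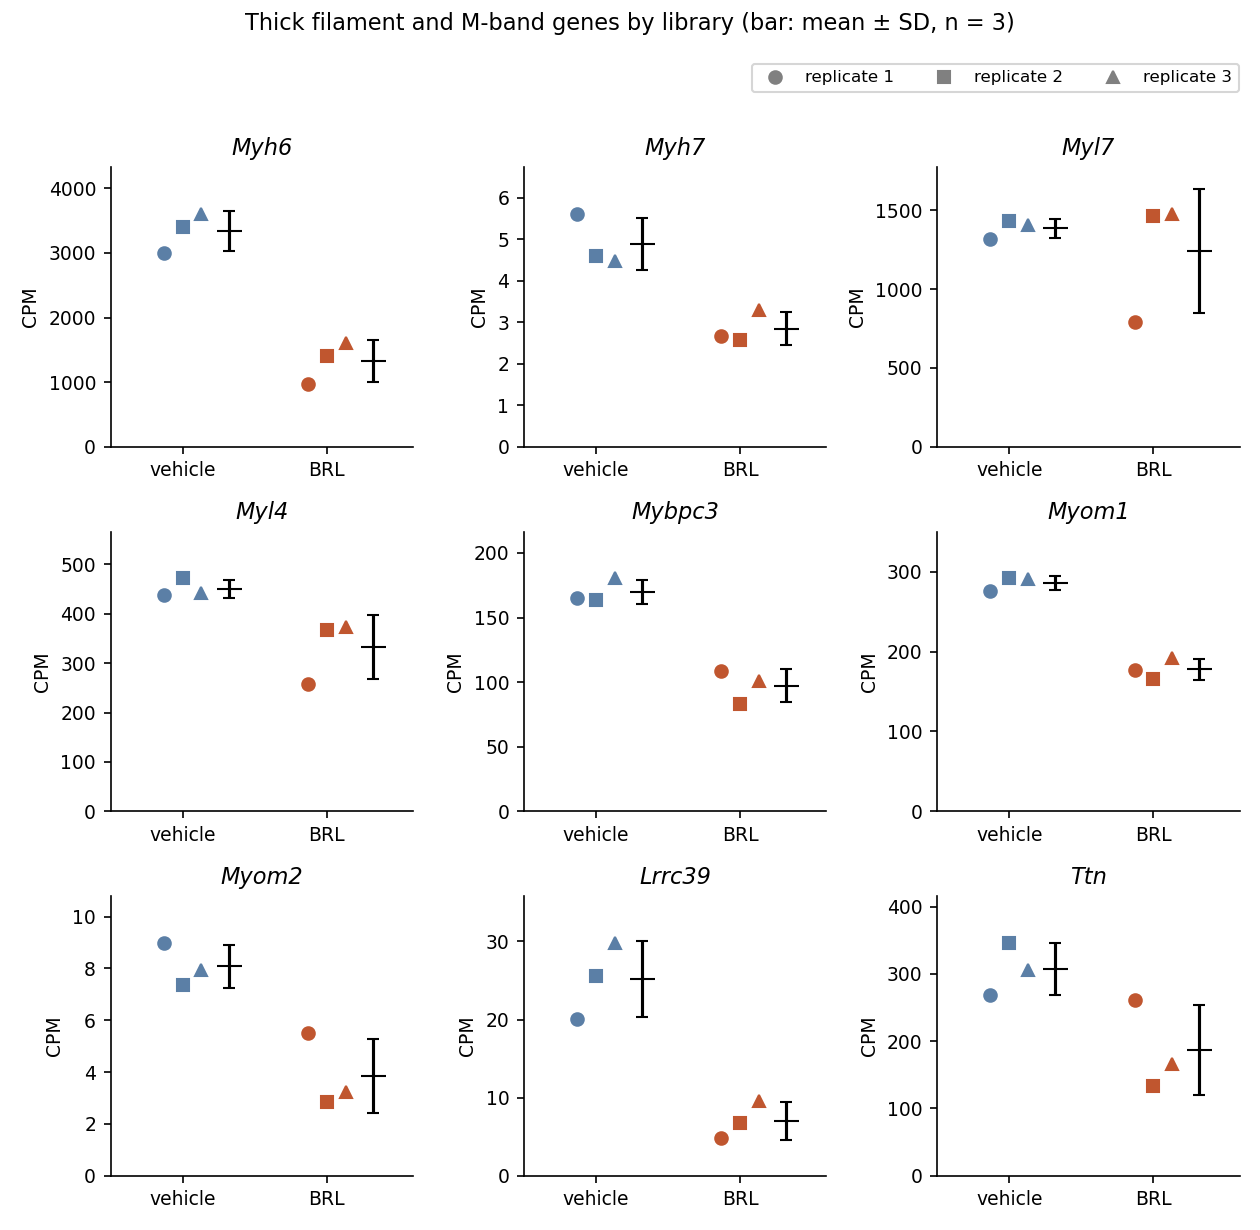
CPM of each of the 9 genes (vertical axes, each from 0) in the vehicle and BRL libraries, 1 point per library, with the mean ± SD of 3 libraries beside them. Myh6, Mybpc3, Myom1 and Lrrc39 fall without overlap, whereas the BRL libraries of Myl7 lie on both sides of the vehicle libraries.

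These calls changed with the libraries used. Without vehicle replicate 1 only Lrrc39 passed (adjusted p = 0.0449 in edgeR's quasi-likelihood test), and without vehicle replicate 2 or 3 none of the 9 did, with 6 and 8 of them at an unadjusted p under 0.05. Over all genes tested, lower calls without vehicle replicates 1 to 3 numbered 31, 29 and 18, against 216 with all libraries. The log2 fold changes stayed close to those of all libraries in these 3 fits, at −1.39 to −1.27 for Myh6, −0.83 to −0.76 for Mybpc3, −0.71 to −0.67 for Myom1 and −1.97 to −1.70 for Lrrc39. Without BRL replicate 1, 7 of the 9 were called lower (Myl4, Myom2 and Ttn in addition to the 4), at a background of 10.9% of genes called lower and 10.3% higher. DESeq2 called 5, edgeR's exact test 6 and limma-voom 4, where 350, 527 and 184 of all genes tested were lower.

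In BRL replicate 2, Myl7 held 10394 counts against 9929 of Myh6. In every other library Myh6 was the most abundant of the 9 in counts. It stood at 3002, 3404 and 3602 CPM in vehicle replicates 1 to 3 and at 979, 1398 and 1611 CPM in BRL replicates 1 to 3. The groups were far apart, with the lowest value in BRL replicate 1. The BRL mean was 39.8% of the vehicle mean (1329 ± 321 against 3336 ± 306 CPM, SD, n = 3). The log2 fold change was −1.33 ± 0.19 (SE; edgeR adjusted p = 0.0117). It was −1.14 without BRL replicate 1 (edgeR adjusted p = 4.84e-06), and adjusted p reached 0.0933 without vehicle replicate 3.

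Myh7 was almost silent beside Myh6. Its expected counts were 25.0, 21.9 and 22.0 in vehicle libraries and 20.2, 18.3 and 27.0 in BRL libraries, in spite of the greater depth of the latter. In CPM these were 5.61, 4.60 and 4.46 CPM in vehicle and 2.67, 2.58 and 3.29 CPM in BRL libraries, 2 groups that did not overlap. In RSEM's values per transcript length the groups did overlap, with BRL replicate 3 (1.44) above vehicle replicates 2 and 3 (1.37 and 1.10). The log2 fold change of −0.78 ± 0.27 did not pass the test (edgeR adjusted p = 0.139), nor did it under any of the 21 alternatives (adjusted p from 0.0874 to 0.685). The 2 genes' longest transcripts are 91.8% identical over 5810 aligned bases, and the expected counts of both were not whole in 5 of 6 libraries, so some reads were divided between gene copies. Exons of Myh7 also overlap those of Mhrt, Gm29015 and Gm31251, and exons of Myh6 those of Gm49130, on the opposite strand in GENCODE M21. None of these overlapping genes was among those counted. No label states the strand setting of the counting, so their reads may be included here. How far such division or overlap moved the level of Myh7 was not tested.

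The comparison of Myh6 with Myh7 within a library does not depend on library scaling. Vehicle libraries held 536, 740 and 807 Myh6 counts per Myh7 count, and BRL libraries held 367, 543 and 489. The ranges overlapped between vehicle replicate 1 and BRL replicate 2. On the log2 scale the ratio was 9.42 ± 0.31 in vehicle and 8.85 ± 0.29 in BRL libraries (SD, n = 3), a difference of −0.57 that an exact two-sided permutation test did not separate from 0 (p = 0.2). With 3 libraries a group that exact test cannot go below p = 0.1. From RSEM's values per transcript length the difference was −0.79. These ratios were 559, 648 and 853 in vehicle and 378, 566 and 278 in BRL libraries. Of the BRL libraries only replicate 3 was lower than in counts. There the mean transcript length of Myh7 from RSEM's assignment, described below, was 3.4 kb. It was 6.18 kb in BRL replicates 1 and 2 and 5.05 kb in vehicle replicate 2, all at the low counts given above. Myh7 made up 0.124% to 0.186% of the counts of both genes in vehicle libraries and 0.184% to 0.272% in BRL libraries. The exact Clopper-Pearson 95% intervals ran from 0.0775% to 0.187% in the lowest library, vehicle replicate 3, and from 0.165% to 0.416% in the highest, BRL replicate 1, and cover counting error only.

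The light chains moved less than the heavy chain they bind. Myl7, the atrial regulatory light chain, stood at 1318, 1433 and 1403 CPM in vehicle and at 788, 1463 and 1476 CPM in BRL libraries. BRL replicate 1 was the lowest of all 6, and BRL replicates 2 and 3 were the highest. The log2 fold change was −0.16 ± 0.22 (edgeR adjusted p = 0.723) and turned to 0.09 without BRL replicate 1, a sign that was lost once the length and GC trend described further on was also removed (−0.19). Myl4, the atrial essential light chain, stood at 439, 472 and 441 CPM in vehicle and at 257, 367 and 373 CPM in BRL libraries. These groups did not overlap, and BRL replicate 1 was again lowest. Its log2 fold change of −0.44 ± 0.15 did not pass (edgeR adjusted p = 0.138), and without BRL replicate 1 it was smaller, at −0.28, and passed (edgeR adjusted p = 0.00885).

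The ratio of Myh6 to each light chain was lower in every BRL library than in any vehicle library. Per transcript length, Myh6 stood at 0.200, 0.214 and 0.228 of the Myl7 level in vehicle libraries and at 0.108, 0.0840 and 0.0951 in BRL libraries. Against Myl4 the same ratio was 1.00, 1.13 and 1.21 in vehicle and 0.494, 0.523 and 0.589 in BRL libraries. The log2 count ratio differed by −1.14 for Myl7 and by −0.90 for Myl4, each without overlap. Both had p = 0.1 in the exact two-sided permutation test, the smallest it allows, and 0.327 after adjustment over the 36 pairs of the 9 genes. Myh6 was also lower relative to Mybpc3 (by −0.54) and to Myom1 (by −0.67) and higher relative to Lrrc39 (by 0.53) without overlap, with the same exact p and adjusted value. The other pairs without overlap were Lrrc39 with Myh7, Myl7, Myl4, Mybpc3, Myom1 and Ttn. With the length and GC trend described further on removed, log2 fold changes were −1.33 for Myh6, −0.37 for Myl7 and −0.45 for Myl4. The ratios were not tested with that trend removed.

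Mybpc3 is the cardiac isoform of myosin-binding protein C, whose mutations are a common cause of inherited hypertrophic cardiomyopathy in people. Its level was 165, 164 and 180 CPM in vehicle and 108, 82.9 and 101 CPM in BRL libraries. BRL replicate 1 was the highest of its group, and the groups did not overlap. The BRL mean was 57.3% of the vehicle mean, and the log2 fold change was −0.80 ± 0.12 (edgeR adjusted p = 0.0129). Its expected counts were whole in all 6 libraries.

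At the M-band, Lrrc39, which encodes myomasp, a myosin-interacting M-band protein, showed the largest fold change of the 9. It stood at 20.1, 25.5 and 29.8 CPM in vehicle and at 4.79, 6.73 and 9.53 CPM in BRL libraries. The groups were far apart, with the lowest value in BRL replicate 1. The BRL mean was 27.9% of the vehicle mean, and the log2 fold change was −1.84 ± 0.25 (edgeR adjusted p = 0.00979). Its expected counts were not whole in any library, and its exons overlap those of Trmt13 on the opposite strand in GENCODE M21. Trmt13, a tRNA methyltransferase gene, had 19.7 ± 1.57 CPM in vehicle and 17.3 ± 5.05 CPM in BRL libraries (SD, n = 3) and was not called (log2 fold change −0.19, edgeR adjusted p = 0.652). No label states the strand setting of the counting, so reads of this gene pair may be divided.

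Myom1 encodes myomesin 1, the main thick filament cross-linker of the M-band. Its level was 276, 292 and 291 CPM in vehicle and 177, 165 and 192 CPM in BRL libraries. The libraries of each group lay close together, BRL replicate 1 included, and the groups were far apart. The log2 fold change was −0.69 ± 0.10 (edgeR adjusted p = 0.0103). It ranged from −0.74 to −0.62 over the 21 alternatives. Its exons overlap those of Myl12a on the opposite strand in GENCODE M21. Myl12a, a non-muscle light chain gene, had 280 ± 5.82 CPM in vehicle and 254 ± 27.1 CPM in BRL libraries (SD, n = 3; edgeR adjusted p = 0.477), and the counts of Myom1 were whole in every library.

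Myom2 encodes myomesin 2, the M-protein, which is found in fast skeletal fibres and in the heart. Its level was low, at 8.99, 7.34 and 7.92 CPM in vehicle and 5.49, 2.83 and 3.22 CPM in BRL libraries. The groups did not overlap, and BRL replicate 1 was closest to vehicle. The log2 fold change was −1.08 ± 0.29 (edgeR adjusted p = 0.0864), and −1.41 without BRL replicate 1 (edgeR adjusted p = 0.00166). Each library held 20.1 to 41.5 expected counts of the gene.

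Titin differed among the BRL libraries more than within the vehicle group. Ttn stood at 269, 346 and 305 CPM in vehicle libraries and at 261, 133 and 167 CPM in BRL libraries. BRL replicate 1 lay just under the lowest vehicle library, while BRL replicates 2 and 3 lay far below it. The log2 fold change was −0.71 ± 0.23 (edgeR adjusted p = 0.123). Without BRL replicate 1 it was −1.03 and passed (edgeR adjusted p = 2.93e-05). Per transcript length the groups overlapped, at 19.6, 23.8 and 21.0 TPM (the length-scaled share of all transcripts) in vehicle and 21.0, 7.40 and 8.84 TPM in BRL libraries.

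**Figure D2:**
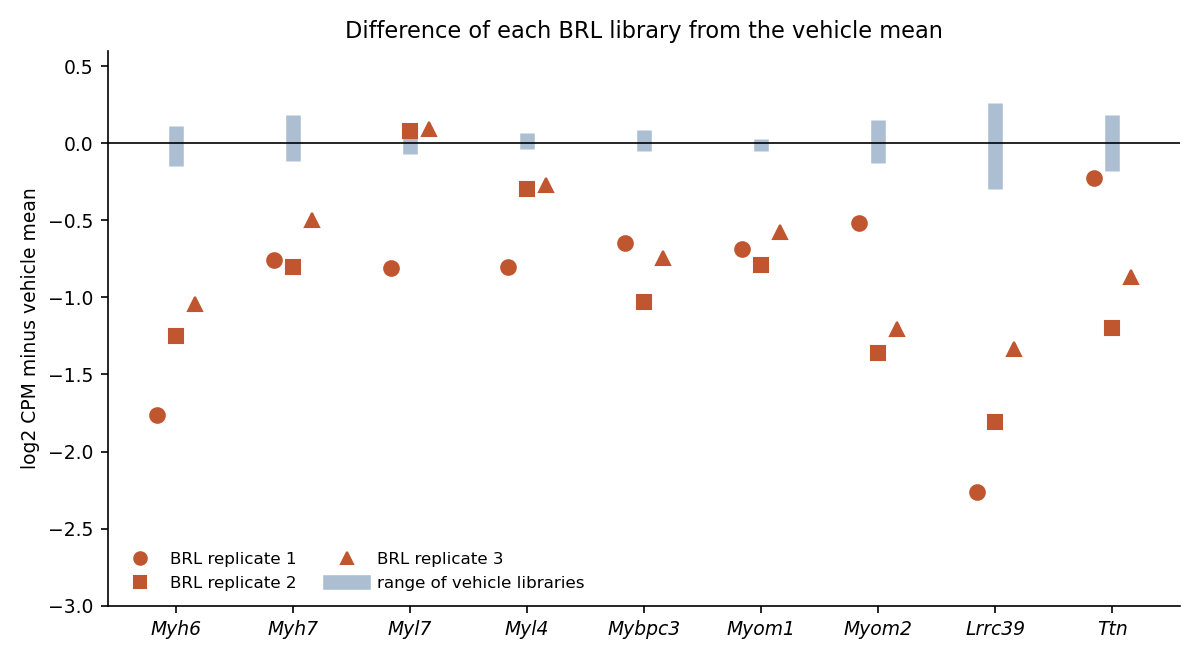
Difference of each BRL library from the mean of the 3 vehicle libraries in log2 CPM (vertical axis, 0.5 CPM added before the log), for each gene, with the range of the vehicle libraries as a bar. BRL replicate 1 is the lowest for Myh6, Myl7, Myl4 and Lrrc39 and the highest for Mybpc3, Myom2 and Ttn.

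BRL replicate 1 thus ordered the 9 genes differently from the other BRL libraries. In log2 CPM relative to the vehicle mean, Myh6 was at −1.76, −1.25 and −1.05 in BRL replicates 1 to 3, and Lrrc39 at −2.26, −1.81 and −1.34. Ttn was at −0.22, −1.20 and −0.87, and Myom2 at −0.51, −1.36 and −1.20. In 25 of the 27 combinations of gene and BRL library the value lay below the vehicle mean, and the other 2 were Myl7 in BRL replicates 2 and 3. Median values over the 9 genes were −0.76, −1.03 and −0.75, so as a group they were about as low in BRL replicate 1 as in the other libraries.

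Long transcripts were lower in 2 of the BRL libraries across the whole transcriptome, and the 9 genes span a wide range of length. The median log2 difference from the vehicle mean went from 0.21 in the shortest of 10 length bins of the genes tested to −0.23 in the longest in BRL replicate 2, and from 0.16 to −0.13 in BRL replicate 3. In BRL replicate 1 it went from −0.02 to 0.10. The longest annotated transcript is 590 bases for Myl7, 6113 for Myh6 and 106824 for Ttn. With each library's trend on length and GC content removed, an alternative chosen after seeing the data, the same 4 genes were called lower. The value of Ttn was then −0.39 (edgeR adjusted p = 0.0593) in place of −0.71, and that of Myh6 −1.33. The value of Myl7, the shortest, went from −0.16 to −0.37 (edgeR adjusted p = 0.254), and without BRL replicate 1 from 0.09 to −0.19 (edgeR adjusted p = 0.0893). With the trend removed and BRL replicate 1 left out, 7 of the 9 genes were called lower at a background of 7.38%, with Ttn at −0.42 (edgeR adjusted p = 0.000617). Only 12 tested genes have a transcript over 20000 bases, so the trend at the length of titin rests on few genes. The trend was fitted on the longest annotated transcript, 3273 bases for Myl4. For Ttn and Myl4 the mean length from RSEM's assignment, described below, was shorter. It was 22.1 and 0.878 kb in vehicle and 26.1 and 0.803 kb in BRL libraries. Removal of a trend at those lengths was not tested.

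**Figure D3:**
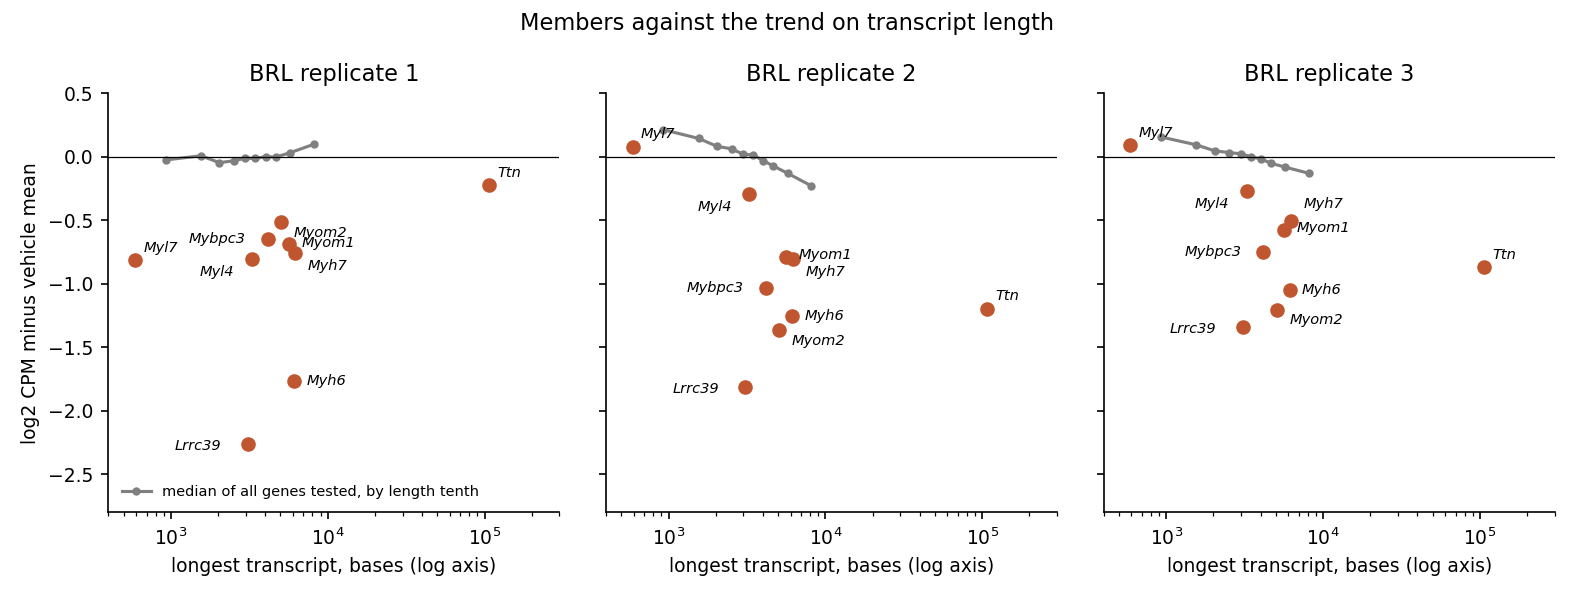
Difference of each BRL library from the vehicle mean in log2 CPM (vertical axis) against the longest annotated transcript in bases (log axis), for the 9 genes as points and for 10 length bins of all genes tested as a grey line of medians. Myl7 at 590 bases and Ttn at 106824 bases lie beyond the ends of the line, which slopes from 0.21 to −0.23 in BRL replicate 2.

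The order of the levels can be compared between genes per transcript length. In vehicle libraries it ran Myl7 (4120 ± 33.9 TPM), Myh6 (882 ± 61.6), Myl4 (795 ± 20.2), Myom1 (79.8 ± 0.417), Mybpc3 (63.1 ± 3.49), Ttn (21.4 ± 2.13), Lrrc39 (12.8 ± 2.13), Myom2 (4.30 ± 0.874) and Myh7 (1.31 ± 0.188 TPM; SD, n = 3 each). Myh6 and Myl4 overlapped, at 816.6 TPM each in vehicle replicate 1, and the other neighbours did not overlap. In BRL libraries Myl4 (660 ± 27.3 TPM) stood above Myh6 (354 ± 40.4 TPM) in all 3. Mybpc3 (38.8 ± 12.8 TPM) and Myom1 (52.5 ± 11.6 TPM) then overlapped, as did Myom2 (1.33 ± 0.770 TPM) and Myh7 (0.966 ± 0.436 TPM).

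**Figure D4:**
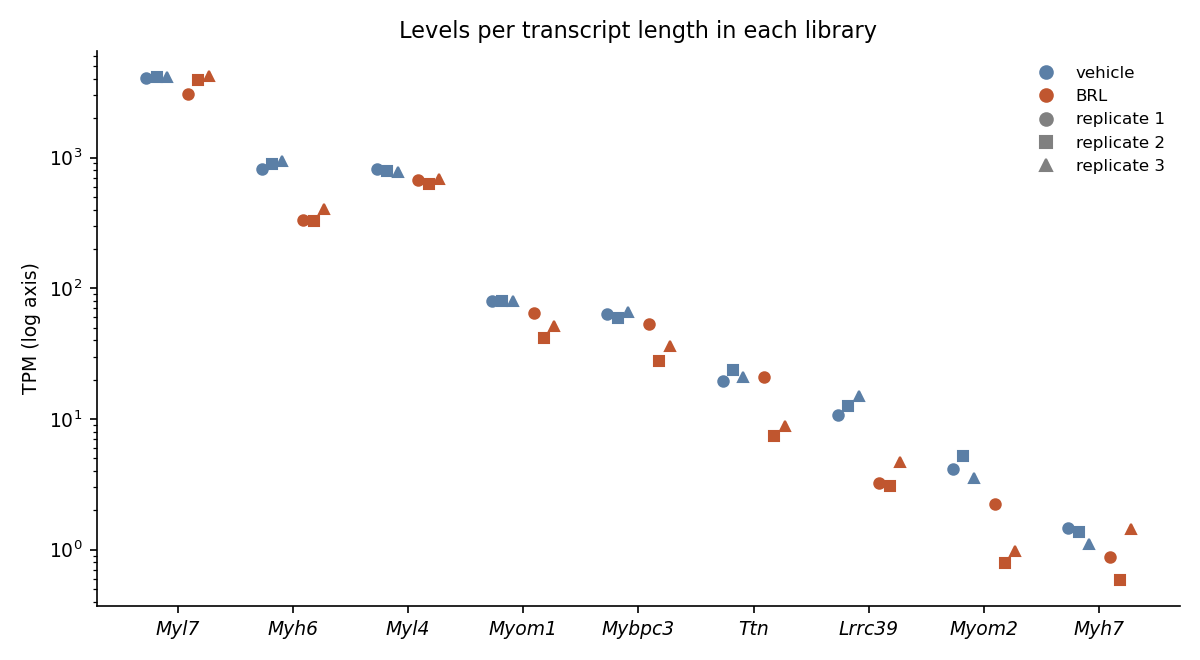
TPM on a log axis for the 9 genes in each vehicle and BRL library, ordered by the vehicle mean. Myh6 and Myl4 lie together in vehicle libraries, at 882 and 795 TPM on average, and apart in BRL libraries, at 354 and 660 TPM.

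The ratio of counts to the RSEM fraction gives the mean length of the transcripts to which RSEM assigned a gene's reads. For a gene with several transcripts it follows the mix of isoforms. For Ttn, with 26 annotated transcripts, it was 22.1, 22.0 and 22.2 kb in vehicle libraries and 25.4, 25.0 and 28.0 kb in BRL libraries. The groups did not overlap, and all 3 BRL libraries were above vehicle, BRL replicate 1 included. The ratio of means was 1.18 (exact two-sided permutation p = 0.1, the smallest possible). A rise without overlap was seen in 11.2% of the 8695 genes with several transcripts, and one at least as large as that of Ttn in 142 of them. Myom2 went from 3.49, 2.11 and 3.44 kb to 5.05, 4.96 and 4.85 kb, at the low counts given above. Myl4 was shorter, at 0.866, 0.901 and 0.866 kb in vehicle and 0.779, 0.814 and 0.816 kb in BRL libraries, as 7.56% of those genes were without overlap. Myl7, with 1 transcript, also differed without overlap, at 0.5199 to 0.5203 kb in vehicle and 0.5209 to 0.5222 kb in BRL libraries (ratio of means 1.003). Lack of overlap alone thus does not show a change of isoforms. These lengths come from RSEM's assignment of short reads and not from sequenced isoforms.

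The rest of the M-band list held 11 genes, of which 10 were tested, and 3 fell and none rose, with a median log2 fold change of −0.38. Trim55, which encodes MuRF2, a ubiquitin ligase of the titin kinase region, stood at 25.1, 30.6 and 28.2 CPM in vehicle and 11.5, 11.4 and 12.5 CPM in BRL libraries. All 3 BRL libraries were alike and well below vehicle (log2 fold change −1.24 ± 0.13, edgeR adjusted p = 0.00391). Ank1, which encodes an ankyrin, fell by 0.73 on the log2 scale (edgeR adjusted p = 0.0293), and its counts were not whole in any library. Fhl2, a LIM protein that binds titin and is counted in 2 lists, fell by 0.82 (edgeR adjusted p = 0.0478). Myom3, the third myomesin, had 8.08 ± 1.18 CPM in vehicle and 6.53 ± 3.05 CPM in BRL libraries (SD, n = 3) and was not called (edgeR adjusted p = 0.659).

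Of 11 titin-bound proteins 8 were tested, and Fhl2 alone fell (median −0.37). Of 8 myosin light chain kinase and phosphatase genes 7 were tested, and Mylk4, a kinase related to the cardiac light chain kinase, fell (median −0.24). Mylk4 stood at 52.5, 58.3 and 55.2 CPM in vehicle and 24.4, 11.3 and 17.1 CPM in BRL libraries, with no overlap (log2 fold change −1.65 ± 0.23, edgeR adjusted p = 0.0103). Of 17 transcription and splicing factors known for cardiac myosin or titin genes, all tested, 2 fell and none rose (median −0.10). Rbm20, the splicing factor that represses inclusion of titin spring exons, stood at 235, 225 and 236 CPM in vehicle and 150.5, 150.5 and 179 CPM in BRL libraries. It was lower in all 3 BRL libraries (log2 fold change −0.53 ± 0.10, edgeR adjusted p = 0.0370). Thra, the thyroid hormone receptor α, which is known to activate Myh6, fell from 60.9 ± 5.09 to 39.4 ± 5.28 CPM (SD, n = 3; log2 fold change −0.63 ± 0.13, edgeR adjusted p = 0.0435), and its counts were not whole in any library. Exons of Thra overlap those of Nr1d1 on the opposite strand in GENCODE M21, so reads of this gene pair may be divided.

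These counts moved with the libraries. When any 1 vehicle library was left out, 1 of the other M-band genes was called and 0 of the titin-bound proteins, kinases and phosphatases, and factors. Without BRL replicate 2 the calls numbered 1 for the M-band, 1 for the kinases and 0 for the titin-bound proteins and factors, and without BRL replicate 3 they numbered 2, 1, 1 and 1 for the M-band, kinases, titin-bound proteins and factors. Over all genes, lower calls numbered 18 to 31 without a vehicle library, 84 without BRL replicate 2 and 103 without BRL replicate 3. Without BRL replicate 1, 5 M-band genes, 3 titin-bound genes, 3 kinase or phosphatase genes and 8 factors were lower, and Sqstm1, Ppp1r12c, Nkx2-5 and Gata4 were higher, where 10.9% of all genes were lower and 10.3% higher. After removal of the trend on length and GC as well, the lower calls were 6, 4, 3 and 4 at a background of 7.38%, Sqstm1 and Ppp1r12a were higher, and Nkx2-5, Gata4 and Ppp1r12c were not called.

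The other families of myosin gave no calls. Of 8 other muscle heavy chain genes only Myh8, the perinatal isoform, was tested (log2 fold change 0.02, edgeR adjusted p = 0.989). Both other light chain genes tested, Myl1 and Myl2, were not called, with Myl1, of the smaller p, at −0.21 (edgeR adjusted p = 0.578). Both other myosin-binding genes tested were not called, with Mybphl, a paralogue of myosin-binding protein H, at −0.65 (edgeR adjusted p = 0.253). None of 8 non-muscle and smooth muscle myosin II genes tested was called, with Myl12b, a non-muscle regulatory light chain, at −0.27 (edgeR adjusted p = 0.329; median of the list −0.07). In these 4 lists edgeR's quasi-likelihood test gave 0 genes at an unadjusted p under 0.05, and DESeq2, edgeR's exact test and limma-voom called none. Without BRL replicate 1, Myl6 of the last list was called higher, and the other 3 lists again had no call. After removal of the trend on length and GC as well, Myl6 was not called and Myl9, a smooth muscle and non-muscle regulatory light chain, was called lower.

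**Figure D5:**
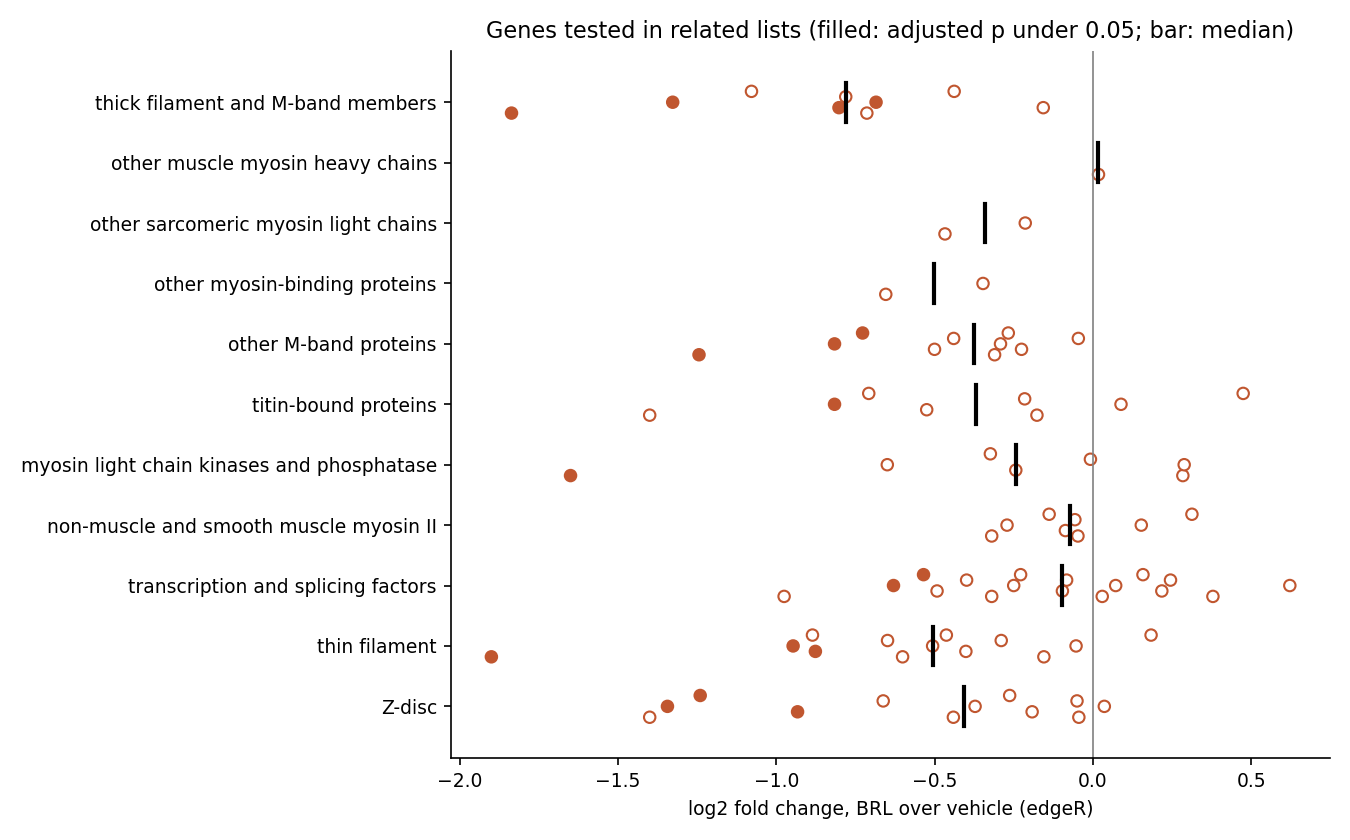
Log2 fold change (BRL over vehicle, edgeR) of every tested gene of the 9 members and of 10 related lists, with called genes filled and the list median as a bar. The median is −0.78 for the members, −0.51 for the thin filament, −0.41 for the Z-disc and −0.07 for non-muscle and smooth muscle myosin II.

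The thin filament and the Z-disc are the 2 neighbouring parts of the sarcomere. Of 13 thin filament genes 3 fell and none rose: Lmod3 (leiomodin 3, an actin nucleator; −1.90), Nebl (nebulette; −0.95) and Tmod1 (tropomodulin 1, the pointed-end cap; −0.88), at edgeR adjusted p of 0.00983, 0.00676 and 0.0137. Of 12 Z-disc genes tested 3 fell: Ldb3 (Cypher; −1.34), Nexn (nexilin; −1.24) and Synpo2l (−0.93), at edgeR adjusted p of 0.00145, 0.00979 and 0.0211. Without any 1 vehicle library 0 thin filament genes and 1 Z-disc gene were called, where 18 to 31 of all genes were lower. Without BRL replicate 2 the Z-disc calls were 2, where 84 of all genes were lower. Without BRL replicate 1 the lower calls were 8 and 6, where 10.9% of all genes were lower and 10.3% higher, and Tnni3 was called higher. After removal of the trend on length and GC as well they were 10 and 7 at a background of 7.38%, and Tnni3 was not called. By BRL replicate 1 to 3 the medians were −1.06, −0.42 and −0.43 for the thin filament and −0.97, −0.48 and −0.23 for the Z-disc. The corresponding medians of the 9 thick filament and M-band genes were −0.76, −1.03 and −0.75. The differences between these lists were not tested.

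The genes whose pattern over the 6 libraries was most like that of Myh6, by root mean square difference of log2 CPM less the vehicle mean, were Nexn (0.09), Arhgap26 (0.13), Xkr4 (0.14), Lrrc3b (0.14) and Has3 (0.14). Of these Nexn, named above among the Z-disc genes, had the highest level, at 421 ± 14.8 CPM in vehicle and 178 ± 45.1 CPM in BRL libraries (SD, n = 3). The others lay at or below 14.5 CPM. Most like Ttn were Herc3 (0.10), Erbb4 (0.12) and Thsd4 (0.14). Erbb4, a neuregulin receptor, was at −0.19, −1.10 and −0.84 in BRL replicates 1 to 3, and it was not called with all libraries (edgeR adjusted p = 0.123).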

How the data were processed

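RNA-seq was made from 6 HL-1 libraries with the Illumina TruSeq RNA kit, per the labels' protocols, and sequenced on a GAIIx, per the series design. The deposited files hold RSEM expected counts per gene and an RSEM fraction per gene that sums to 1. The authors' deposited series table holds log2 values of library-scaled counts. Tools named in the submitters' processing notes are cutadapt, Bowtie and RSEM 1.17, with edgeR and build NCBIM37; their settings are not known here. In RSEM, expected counts divide a read that fits several genes among them. Whole means within 0.005.

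Expected counts were rounded, and genes were kept with filterByExpr (minimum count 10). Groups of 3 libraries were compared with the quasi-likelihood test of edgeR 4.0.16 (R 4.3.3) with TMM factors and Benjamini-Hochberg adjustment at 0.05; CPM use TMM factors. The test was tested on simulated data. TPM are the deposited fraction times 1000000, and implied transcript lengths are counts over fraction, scaled on 575 single-transcript genes. Symbols, found for 88.4% of genes, lengths and overlaps came from GENCODE M21, and promoters from RefSeq, which are of another build than the counts. Alternatives were 19 planned and 2 added after seeing the data, including DESeq2 1.42.0 and limma 3.58.1.

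The members and gene lists were chosen with earlier results of these data known. Named genes were all members, called genes of each list or else the tested gene with the smallest p, and the 5 and 3 genes most like Myh6 and Ttn. Kdr, Sln, Pln, Actc1, Acta2, Myl9, Ppp1r12a, Myom3, Trmt13, Myl12a, Sqstm1, Ppp1r12c, Nkx2-5, Gata4, Myl6 and Tnni3 were named after their values were seen. Mhrt, Gm29015, Gm31251, Gm49130 and Nr1d1 were named for their exon overlaps. Purb of the factor list was not analysed here.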

Additional observations from a re-analysis of the deposited data

How the results depend on the processing

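Of the 9 genes, 4 were called lower; the count was 4 with other library factors, other filters, limma-voom, unrounded counts, mitochondrial genes left out and the authors' deposited log2 table, 5 with DESeq2 and 6 with edgeR's exact test. It was 2 with TPM in limma at either pseudocount, 1 and 0.1, which kept Myh6 and Lrrc39. It ranged from 0 to 7 when 1 library was left out, and was 7 with the length and GC trend removed without BRL replicate 1. Myl7 ranged from −0.30 to 0.09 without 1 library, turning positive without BRL replicate 1 (−0.19 with the trend also removed); no other gene changed direction under any of the 21 alternatives. Over all genes, 122 were higher and 216 lower. These counts became 282 and 330 without a filter, 242 and 350 with DESeq2, 418 and 527 with the exact test, 30 and 30 with TPM at a pseudocount of 1, 30 and 27 at 0.1, and 767 and 867 with the trend removed without BRL replicate 1. Leaving out 1 library gave 20 to 1237 higher and 18 to 1314 lower. The low counts came without a vehicle library (20 or 21 higher, 18 to 31 lower) or without BRL replicate 2 or 3 (43 and 45 higher, 84 and 103 lower), and the high ones without BRL replicate 1. Fewer samples were fitted in each of these; otherwise the cause was not tested.

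Deviations from the group means of libraries with the same replicate number correlated at 0.10, −0.02 and −0.02, and those with different numbers at −0.11 to 0.13. With 3 libraries a group these values cannot show whether replicate numbers pair the samples. With the replicate block the counts were 63 higher and 150 lower in all genes and 4 lower among the 9 genes. The Myh6 to Myh7 difference was −0.57 with the replicate block and ranged from −0.75 to −0.41 without 1 library. Depth limits Myh7 and Myom2, at 18.3 to 41.5 counts a library.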
